A study of Mus musculus with 4 samples.

Results

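Expression of 8 serpin genes was followed in Ly49H+ natural killer (NK) cells that did or did not carry the TNF receptor TNFR2, during mouse cytomegalovirus (MCMV) infection. The genes were *Serpinb9*, *Serpinb9b*, *Serpinb6a*, *Serpinb6b*, *Serpinb1a*, *Serpinb2*, *Serpina3f* and *Serpina3g*, 8 of the 35798 named genes in the table and 8 of its 69 genes with a serpin symbol. They were chosen by their symbols after their wild-type and TNFR2 KO values had been seen in these same libraries. The difference between genotypes in these 8 genes is therefore a description of the 4 libraries, and no p-value is given for it.

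The wild-type cells came from CD45.1 mice with an intact *Tnfrsf1b* gene, and the TNFR2 KO cells came from CD45.2 mice in which *Tnfrsf1b* was knocked out. Both were transferred together into the same NSG mice, which were infected with MCMV one day later, and Ly49H+ cells of either CD45 type were sorted from spleen on D3.5. Each genotype had 2 libraries, each from the pooled spleens of 3 NSG mice, and same-numbered libraries of the 2 genotypes came from one pool. The paper describes a single experiment in duplicate, with cells from the pooled spleens of 3 infected mice. Whether the 2 pools held different mice is therefore not certain. NSG mice lack mature T, B and NK cells of their own but keep myeloid cells, and their leukocytes carry CD45.1. Effects of genotype, of CD45 type and of the gate used for sorting cannot be told apart here, since all differ between the groups. The cells in a pool had a knockout that was present throughout the animal's life, and all 4 libraries came from infected hosts at a single time.

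Serpins are protease inhibitors that work once. The protease cuts an exposed stretch near the serpin's C-terminal end, the reactive centre loop, and is then trapped in a covalent complex. Killer lymphocytes load granules with granzymes, and serpins in their own cytoplasm are known to protect them from granzymes that leak. Serpins of clade B lack a classical secretion signal and act mostly inside cells, whereas those of clade A are mostly secreted, with mouse *Serpina3g* being a known exception that acts inside the cell.

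Library totals ran from 32713054 to 39543464 counts. Values below are CPM, counts scaled to a common library size after correction by the trimmed mean of M-values (TMM), and each mean is given with its SD (n = 2). Fold changes are log2 of TNFR2 KO over wild-type. The targeted gene was lower but not absent in the libraries labelled TNFR2 KO, where it kept 2133 and 1877 counts. *Tnfrsf1b* stood at 265 and 269 CPM in wild-type and at 55.1 and 58.6 CPM in TNFR2 KO. Its log2-fold change was -2.23 (SE 0.0352, adjusted p = 1.35e-13, quasi-likelihood test of edgeR, Benjamini-Hochberg adjusted). *Ptprc*, which encodes CD45, was at 2374 and 2306 CPM in wild-type and 3311 and 3292 CPM in TNFR2 KO. A gene was called where the adjusted p was under 0.05 and the absolute log2-fold change over 1. Of 13822 tested genes, 13.3% were called, 11.8% lower in TNFR2 KO and 1.56% higher.

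The scaling between libraries bears on every value below. With TMM the median log2-fold change over all tested genes was close to 0. When the libraries were scaled instead on the summed counts of NK lineage genes, that median moved to -0.55, and the calls went from 88.3% lower to 97.8% lower. Under this second scaling *Serpinb9* and *Serpinb6a* changed sign, and the other 6 serpins did not.

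The 8 serpins split by clade and position. On chromosome 13, in the assembly GRCm38 with GENCODE M21 annotation, *Serpinb1a* (32842092-32851185, minus strand), *Serpinb6b* (32965209-32979067, plus strand), *Serpinb9* (33003250-33017957, plus strand), *Serpinb9b* (33027416-33041884, plus strand) and *Serpinb6a* (33917918-34002794, minus strand) lay in a cluster of clade B genes. *Serpinb2* lay on chromosome 1 (107511423-107535478, plus strand), 30.5 megabases from *Ptprc*. *Serpina3f* (104214544-104221129) and *Serpina3g* (104236245-104241939) were neighbours on the plus strand of chromosome 12. All are annotated as protein coding. Position did not sort the values: *Serpinb1a* stood lower in TNFR2 KO than in wild-type, while *Serpinb6b* and *Serpinb9b* from the same cluster stood higher.

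*Serpinb9* encodes the inhibitor of granzyme B, and its neighbour *Serpinb9b* is a close paralog. Their coding sequences were 86.0% identical, at 965 of 1122 aligned bases. The last 150 coding bases of *Serpinb9* and the aligned 159 bases of *Serpinb9b* are shown because the reactive centre loop, which decides which protease a serpin meets, is encoded near that end. They were read from the GRCm38 genome with GENCODE M21 coding models. Capitals mark bases that differ from the paralog or have no partner in the alignment.
Serpinb9: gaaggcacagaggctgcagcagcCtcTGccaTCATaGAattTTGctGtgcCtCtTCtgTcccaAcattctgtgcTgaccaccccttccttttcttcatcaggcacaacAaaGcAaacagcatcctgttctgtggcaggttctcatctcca
Serpinb9b: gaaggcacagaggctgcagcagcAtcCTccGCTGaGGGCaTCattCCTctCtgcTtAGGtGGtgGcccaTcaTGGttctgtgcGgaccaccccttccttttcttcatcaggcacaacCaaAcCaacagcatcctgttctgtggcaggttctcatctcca
Mismatches numbered 23 in this stretch, and 9 bases of *Serpinb9b* had no partner. Of the mismatches, 20 fell in the first 75 bases of the *Serpinb9* stretch and 3 in its last 75 bases. The genes also shared few 31-base words across their transcripts, which is where short reads could be assigned to either. *Serpinb9* shared 3.79% of its 31-base words with *Serpinb9b*, so its estimated counts could be split from its paralog over most of its length. *Serpinb9b* shared 3.91% with *Serpinb9* and 11.0% with all other genes together, so part of its estimated count is uncertain.

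*Serpinb9* was at 457 and 433 CPM in wild-type and 603 and 592 CPM in TNFR2 KO, means of 445 ± 16.7 and 597 ± 7.50. Both TNFR2 KO libraries stood above both wild-type libraries, so that the log2-fold change was 0.43, which turned to -0.12 when scaled on NK lineage genes. Within the pools of spleens, TNFR2 KO over wild-type was 1.32-fold in pool 1 and 1.37-fold in pool 2. Leaving out any single library gave a log2-fold change of 0.40 to 0.47. It did not pass the size threshold for a call.

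*Serpinb9b* had the largest log2-fold change among the 4 members that stood higher in TNFR2 KO with TMM, a group in which *Serpinb9* and *Serpinb6a* change sign when scaled on NK lineage genes. *Serpinb9b* was at 76.1 and 75.1 CPM in wild-type and 239 and 236 CPM in TNFR2 KO, means of 75.6 ± 0.678 and 237 ± 1.94. The groups did not overlap, and the duplicates differed far less than the genotypes. The log2-fold change was 1.65, a 3.14-fold difference that had the same size in both pools, and it was 1.10 when scaled on NK lineage genes. It was the only member called higher, against 1.56% of all tested genes, and nothing is read from that count because the members were selected on this contrast. Of the tested genes, 99.5% had a lower log2-fold change. Within a library, *Serpinb9* was 5.89 ± 0.168 times as high as *Serpinb9b* in CPM in wild-type and 2.52 ± 0.0110 times in TNFR2 KO (SD, n = 2), a ratio that no scaling between libraries can move.

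The 250 bases before the RefSeq transcription starts of both genes (GRCm38.p6) are shown because the pair differed in size of change while lying next to each other. Windows were searched on both strands for the interferon-stimulated response element (ISRE, GAAANNGAAA), the gamma-activated site (GAS, TTCNNNGAA), the AP-1 site (TGANTCA), the TATA box (TATAAA) and the NF-kB consensus. Capitals mark matches, and neither window covers an annotated exon of its own gene.
Serpinb9, chr13:33004291-33004540, plus strand: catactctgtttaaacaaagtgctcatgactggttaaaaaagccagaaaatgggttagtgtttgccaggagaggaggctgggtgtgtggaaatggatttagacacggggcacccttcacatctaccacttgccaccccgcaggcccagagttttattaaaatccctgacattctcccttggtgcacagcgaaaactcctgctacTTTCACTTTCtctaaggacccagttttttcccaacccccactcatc
Serpinb9b, chr13:33027164-33027413, plus strand: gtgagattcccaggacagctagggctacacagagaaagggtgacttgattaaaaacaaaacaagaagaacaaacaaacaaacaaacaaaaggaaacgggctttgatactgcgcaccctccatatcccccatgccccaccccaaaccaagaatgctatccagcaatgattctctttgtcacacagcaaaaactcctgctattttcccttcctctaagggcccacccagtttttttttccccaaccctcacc
The *Serpinb9* window held an ISRE match on the minus strand, 46 to 37 bases before the RefSeq start. By the GENCODE positions this window lies inside *Serpinb9*, after the annotated gene start at 33003250. The *Serpinb9b* window lies before its annotated gene start at 33027416, so the 2 windows are not alike in place. Of 32851 RefSeq windows of this length, 2.98% held one. The *Serpinb9b* window held no match to the letters searched. A match is a description of the letters and not evidence of a bound site.

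*Serpinb6b*, a known inhibitor of mouse granzyme A, and *Serpinb6a*, an intracellular inhibitor of cathepsin G, are another pair of paralogs. Their coding sequences were 86.2% identical, at 972 of 1128 aligned bases. *Serpinb6b* was at 315 and 316 CPM in wild-type and 520 and 510 CPM in TNFR2 KO, means of 316 ± 0.866 and 515 ± 6.97. The groups did not overlap, and the log2-fold change was 0.71, or 0.16 when scaled on NK lineage genes. In pool 1 the difference was 1.65-fold and in pool 2 it was 1.61-fold. It did not pass the size threshold for a call.

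*Serpinb6a* was at 56.0 and 53.0 CPM in wild-type and 69.9 and 68.5 CPM in TNFR2 KO, means of 54.5 ± 2.12 and 69.2 ± 0.987. The TNFR2 KO libraries stood above the wild-type ones, with a log2-fold change of 0.34 that turned to -0.20 when scaled on NK lineage genes. Leaving out each library in turn gave 0.31 to 0.39. *Serpinb6a* shared 29.0% of its 31-base words with other genes, 13.1% with *Nqo2*, so part of its estimated count is uncertain. Within a library *Serpinb6b* was 5.63 and 5.97 times *Serpinb6a* in CPM in wild-type and 7.44 and 7.45 times in TNFR2 KO. The first window of *Serpinb6a* held a GAS match 77 to 69 bases before the start and an overlapping ISRE match at 84 to 75 bases. The *Serpinb6b* window, which covers 52 bases of annotated exons of its own gene, held no match.

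**Figure D1:**
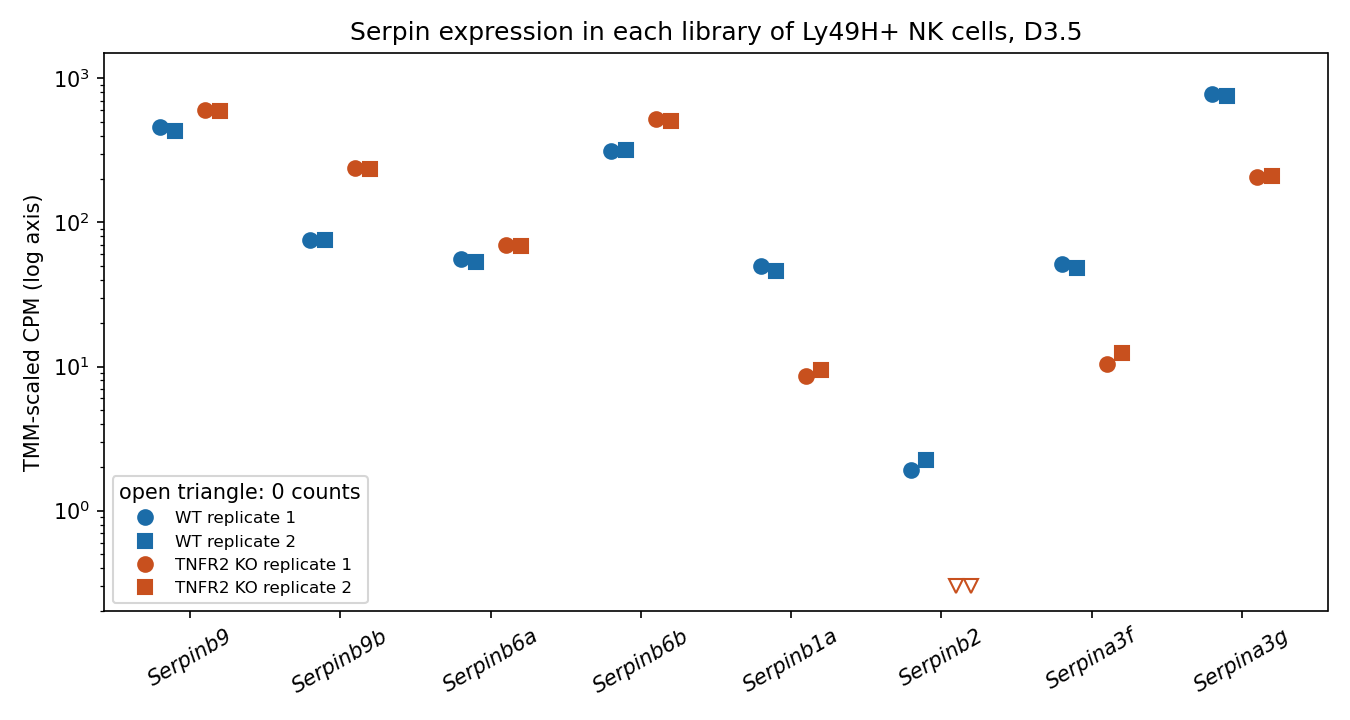
Expression of the 8 serpins in each library, as TMM-scaled CPM on a log axis, with wild-type in blue, TNFR2 KO in orange, circles for replicate 1, squares for replicate 2 and open triangles for 0 counts. With TMM, 4 genes stand higher in TNFR2 KO and 4 stand lower. Of the 4 higher, *Serpinb9* and *Serpinb6a* change sign when scaled on NK lineage genes. The 8 genes were chosen with these values known.

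*Serpinb1a* encodes an inhibitor of the serine proteases of neutrophil granules, elastase, proteinase 3 and cathepsin G. It was at 49.9 and 46.0 CPM in wild-type and 8.63 and 9.43 CPM in TNFR2 KO, means of 48.0 ± 2.78 and 9.03 ± 0.560. Both wild-type libraries stood well above both TNFR2 KO libraries, and the log2-fold change was -2.41, or -2.96 when scaled on NK lineage genes. Wild-type over TNFR2 KO was 5.78-fold in pool 1 and 4.88-fold in pool 2. It was called lower, as were 11.8% of all tested genes, and 5.60% of tested genes had a lower log2-fold change.

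*Serpinb2* encodes plasminogen activator inhibitor 2, best known from monocytes and macrophages. It was the scarcest member, with 72 and 83 counts in wild-type (1.90 and 2.25 CPM, mean 2.07 ± 0.250) and 0 counts in both TNFR2 KO libraries. *Serpinb2* shared 11.2% of its 31-base words with *Serpinb10*, which overlaps it on the same strand, so part of its estimated count is uncertain. *Serpinb2* passed the filter on low counts through the wild-type libraries alone. Set against a floor of 3 counts over both TNFR2 KO libraries, 0.0424 CPM, it was at least 48.9-fold lower, a drop of at least 5.61 on the log2 scale. RefSeq gives it 2 starts. The window before the first held a TATA box match 29 to 24 bases before the start and an AP-1 match 94 to 88 bases before it, motifs held by 12.4% and 6.75% of all windows. The window before the second start held the same matches and a GAS match 77 to 69 bases before that start. This second window covers 69 bases of annotated exons of *Serpinb2*, and its GAS match lies after the annotated gene start.

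*Serpina3g*, an inhibitor of cysteine cathepsins such as cathepsin B that protects lymphocytes from lysosomal leakage and is a known NF-kB target gene, was the most abundant of the 8 in wild-type cells. It was at 773 and 760 CPM in wild-type and 208 and 209 CPM in TNFR2 KO, means of 767 ± 8.82 and 209 ± 0.673. The duplicates nearly coincided and the genotypes lay far apart, with a log2-fold change of -1.88, or -2.42 when scaled on NK lineage genes. Wild-type over TNFR2 KO was 3.71-fold in pool 1 and 3.63-fold in pool 2. It stayed within -1.88 to -1.86 with each library left out. At the 7.97th percentile of tested genes, it was called lower.

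*Serpina3f*, its neighbour and paralog, had a similar log2-fold change at a far lower level. It was at 51.5 and 48.3 CPM in wild-type and 10.4 and 12.4 CPM in TNFR2 KO, means of 49.9 ± 2.33 and 11.4 ± 1.399. The groups did not overlap, and the log2-fold change was -2.13, or -2.68 when scaled on NK lineage genes. Wild-type over TNFR2 KO was 4.94-fold in pool 1 and 3.88-fold in pool 2, a wider gap between pools than for any other member with counts in every library. The pair was 87.4% identical over 744 aligned coding bases. These are the whole coding model used for *Serpina3g* but only part of the 1335 bases of *Serpina3f*. *Serpina3f* shared 15.3% of its 31-base words with *Serpina3g*, and *Serpina3g* shared 16.2% with *Serpina3f*, so some reads of the abundant gene could have been counted for the scarce one. With all other genes together, *Serpina3f* shared 27.3% and *Serpina3g* 28.4%. *Serpina3g* was 15.4 ± 0.540 times *Serpina3f* in CPM in wild-type and 18.4 ± 2.19 times in TNFR2 KO (SD, n = 2).

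The windows of 250 bases before the RefSeq starts of *Serpina3g* and *Serpina3f* (GRCm38.p6) are shown because the pair lies side by side and stood lower in TNFR2 KO together. Capitals mark matches to the same motifs, and neither window covers an annotated exon of its own gene.
Serpina3g, chr12:104235897-104236146, plus strand: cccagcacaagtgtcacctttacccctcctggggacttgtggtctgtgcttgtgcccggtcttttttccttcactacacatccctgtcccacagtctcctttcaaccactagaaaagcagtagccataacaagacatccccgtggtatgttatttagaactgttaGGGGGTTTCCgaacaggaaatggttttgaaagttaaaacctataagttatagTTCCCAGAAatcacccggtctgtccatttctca
Serpina3f, chr12:104214294-104214543, plus strand: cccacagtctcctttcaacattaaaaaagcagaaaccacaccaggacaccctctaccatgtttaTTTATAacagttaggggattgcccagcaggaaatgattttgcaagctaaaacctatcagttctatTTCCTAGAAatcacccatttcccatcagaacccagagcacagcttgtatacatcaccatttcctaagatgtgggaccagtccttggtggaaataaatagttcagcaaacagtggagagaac
Both windows held a GAS match, 33 to 25 bases before the start of *Serpina3g* and 121 to 113 bases before that of *Serpina3f*. The *Serpina3g* window also held a match to the NF-kB consensus 85 to 76 bases before the start. For *Serpina3f* the first of 2 RefSeq starts was used. Its window held none to that consensus, but held a TATA box match on the minus strand 186 to 181 bases before the start. Of all windows, 7.02% held a GAS match and 7.25% an NF-kB match. Windows were found for 7 of the 8 members, all but *Serpinb1a*.

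**Figure D2:**
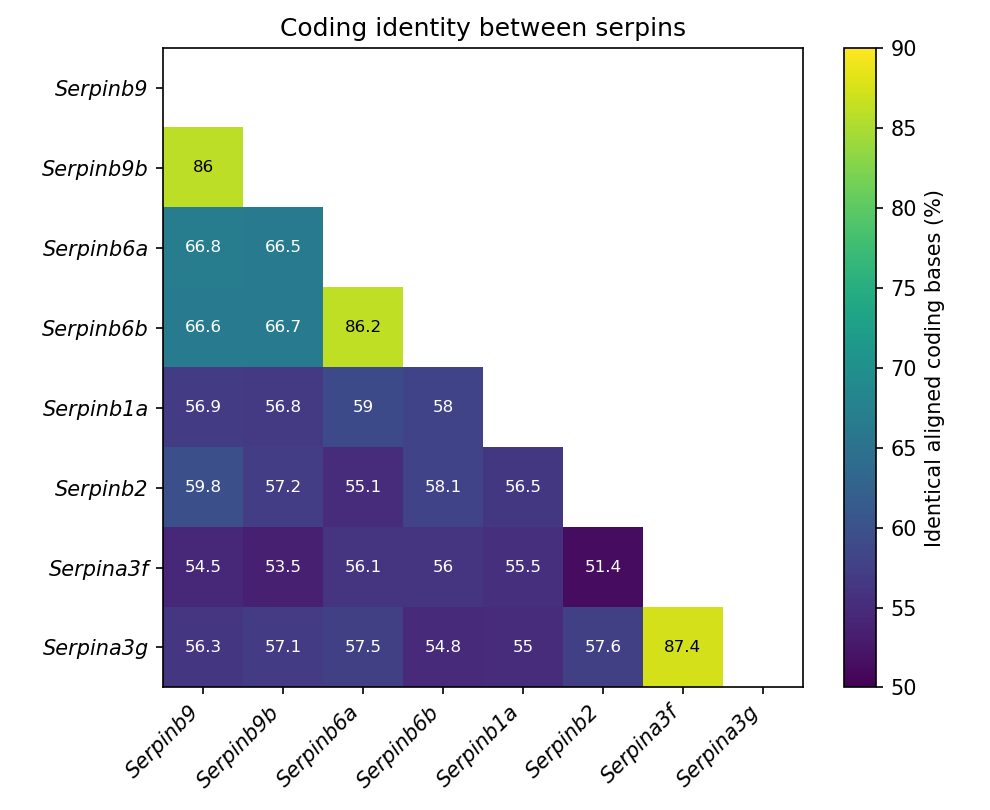
Percent of identical bases between aligned coding sequences of the longest annotated coding model of each gene, for every pair of the 8 serpins, on a colour scale from 50 to 90%. The pairs *Serpinb9* with *Serpinb9b*, *Serpinb6a* with *Serpinb6b* and *Serpina3f* with *Serpina3g* stand at 86.0, 86.2 and 87.4%, and all others lie between 51.4 and 66.8%. The *Serpina3g* model has 744 coding bases, so its values cover only part of the other genes.

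**Figure D3:**
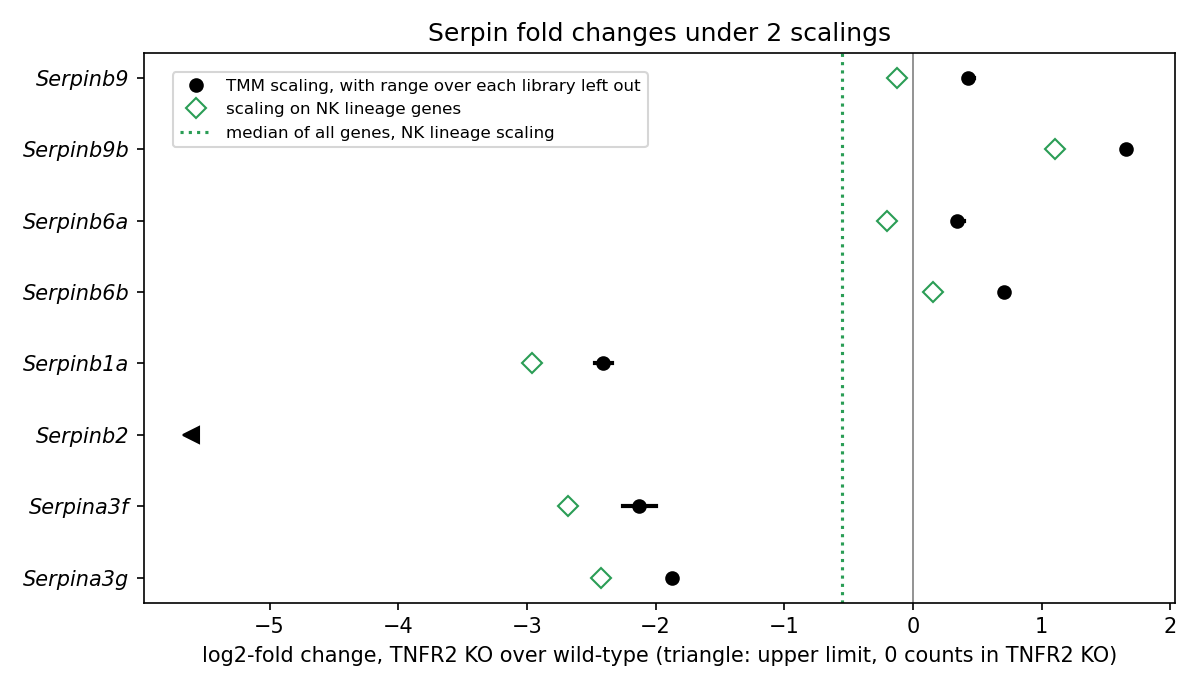
Log2-fold change of each serpin, TNFR2 KO over wild-type, with TMM scaling (black points, with bars for the range when each library is left out) and with scaling on NK lineage genes (green diamonds). The triangle for *Serpinb2* is an upper limit set by 0 counts in TNFR2 KO. With the second scaling every point lies further left, the median of all genes sits at -0.55 (dotted line), and *Serpinb9* and *Serpinb6a* cross 0.

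Summed over the 8 genes, the serpin signal was at 1780 and 1734 CPM in wild-type and 1658 and 1638 CPM in TNFR2 KO, 0.938-fold with TMM and 0.642-fold when scaled on NK lineage genes. The 6 clade B members summed to 956 and 926 CPM in wild-type and 1440 and 1416 CPM in TNFR2 KO, 1.52-fold with TMM and 1.04-fold when scaled on NK lineage genes. The clade A pair summed to 824 and 809 CPM in wild-type and 219 and 222 CPM in TNFR2 KO, 0.270-fold with TMM and 0.185-fold when scaled on NK lineage genes. With TMM, the duplicates of both clades lay far closer to each other than to the other genotype. For the sum over all 8 the genotypes did not overlap with TMM. Neither statement is made for scaling on NK lineage genes, where the clade B sums differed by only 1.04-fold.

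As a share of the CPM of all 69 serpins, which does not depend on the scaling between libraries, *Serpina3g* held 42.6% in wild-type and 12.5% in TNFR2 KO. *Serpinb9* held 24.7% and 35.7%. These shares of CPM are not corrected for transcript length. *Serpinb6b* held 17.6% and 30.7%, and *Serpinb9b* 4.21% and 14.2%. The ratio of *Serpina3g* to *Serpinb9* in CPM was 1.69 and 1.76 in the wild-type libraries and 0.346 and 0.354 in the TNFR2 KO libraries. The 61 other serpins summed, in CPM, to 40.3 ± 0.459 for wild-type and 27.6 ± 2.19 for TNFR2 KO (SD, n = 2).

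**Figure D4:**
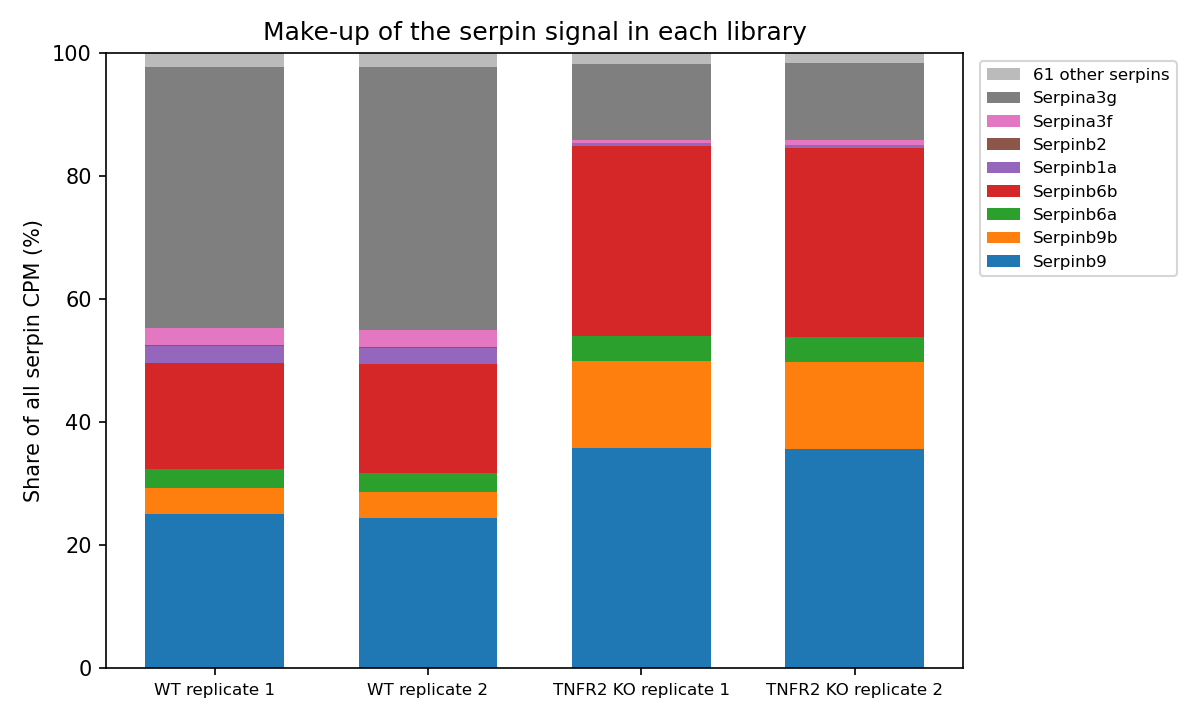
Share of the CPM of all 69 serpins held by each of the 8 genes and by the 61 others, as stacked bars from 0 to 100% for each of the 4 libraries. *Serpina3g* (dark grey) takes 42.6% on average in wild-type and 12.5% in TNFR2 KO, and *Serpinb9* (blue) 24.7% and 35.7%.

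Levels of different genes can be ordered only per length. In CPM per kilobase of the longest coding transcript, wild-type means ran *Serpina3g* 425, *Serpinb6b* 144, *Serpinb9* 128, *Serpinb6a* 32.9, *Serpinb1a* 25.01, *Serpinb9b* 23.2, *Serpina3f* 22.2 and *Serpinb2* 1.04. In TNFR2 KO the order was *Serpinb6b* 235, *Serpinb9* 172, *Serpina3g* 116, *Serpinb9b* 73.0, *Serpinb6a* 41.8, *Serpina3f* 5.09, *Serpinb1a* 4.71 and *Serpinb2* 0. *Serpinb1a*, *Serpinb9b* and *Serpina3f* lay within 3 CPM per kilobase of each other in wild-type, and their order there rests on the transcript length used.

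Of the 61 other serpins, 32 had 0 counts in every library, and 13 passed the filter on low counts. Of these 13, 5 were called lower and 1 higher, with a median log2-fold change of -1.12, beside a median close to 0 and calls of 11.8% lower and 1.56% higher over all tested genes. Only *Serpina3i*, another gene of the *Serpina3* cluster, was called with at least 10 counts in every library. It was at 8.65 and 8.68 CPM in wild-type and 1.11 and 1.03 CPM in TNFR2 KO. Its log2-fold change was -3.01 (SE 0.167, edgeR Benjamini-Hochberg adjusted p = 1.57e-08). It shared 27.3% of its 31-base words with other genes.

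*Serping1*, the C1 inhibitor of complement, was at 1.61 and 1.82 CPM in wild-type and 0.207 and 0.187 CPM in TNFR2 KO, and was called lower at -3.09 (SE 0.390, edgeR adjusted p = 3.17e-05). *Serpinb8* and *Serpinb10* were called lower at -2.55 (edgeR adjusted p = 0.00148) and -1.90 (edgeR adjusted p = 0.0113). *Serpinb10* rested on 18 and 3 counts in TNFR2 KO and was at -3.49 without TNFR2 KO replicate 1 and -1.23 without replicate 2. *Serpinb1c* was called higher at 2.03 on 6, 2, 12 and 19 counts (edgeR adjusted p = 0.0316). That call was lost with DESeq2 (adjusted p = 0.106), with scaling on NK lineage genes (edgeR adjusted p = 0.0740), and without wild-type replicate 1, wild-type replicate 2 or TNFR2 KO replicate 2 (edgeR adjusted p of 0.0513, 0.241 and 0.265). Without wild-type replicate 1 its log2-fold change was 2.97.

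*Serpine2*, protease nexin 1, had the highest mean CPM of the serpins outside the 8, at 13.2 and 13.8 CPM in wild-type and 9.31 and 7.93 CPM in TNFR2 KO. It changed by -0.64 (SE 0.108, edgeR adjusted p = 0.000344), short of a call, and was called at -1.19 when scaled on NK lineage genes. *Serpini1*, neuroserpin, was at 5.75 and 5.37 CPM in wild-type and 8.01 and 6.15 CPM in TNFR2 KO. It was not called, at 0.35 (edgeR adjusted p = 0.0737). In the paired fit, with the replicate block, it was 0.34 (edgeR adjusted p = 0.0435), and without TNFR2 KO replicate 2 it was 0.53 (edgeR adjusted p = 0.00367). When scaled on NK lineage genes it was -0.19 (edgeR adjusted p = 0.259).

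The proteases that these serpins can meet were also compared. Of 26 listed granzymes, cathepsins and other proteases with their partners, 20 were tested, and 11 were called lower and 1 higher. Over all tested genes, 11.8% were called lower and 1.56% higher. The list's median log2-fold change was -1.28, beside a median close to 0 over all genes. The list was written by hand with earlier results of these data known. *Gzmb*, the granzyme that *Serpinb9* inhibits, was at 3894 and 3859 CPM in wild-type and 6589 and 6491 CPM in TNFR2 KO. It changed by 0.75 (SE 0.0173, edgeR adjusted p = 3.07e-12), short of a call, and by 0.21 when scaled on NK lineage genes. *Gzmb* was 8.52 and 8.91 times *Serpinb9* in CPM in wild-type and 10.9 and 11.0 times in TNFR2 KO.

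*Gzma*, the granzyme inhibited by *Serpinb6b*, was at 5831 and 5779 CPM in wild-type and 12386 and 12140 CPM in TNFR2 KO. It was the only protease called higher, at 1.08 (SE 0.0166, edgeR adjusted p = 1.08e-13), and at 0.53 it was no longer called when scaled on NK lineage genes. *Prf1*, perforin, changed by 0.83 (SE 0.0206, edgeR adjusted p = 6.17e-12), short of a call, and by 0.29 when scaled on NK lineage genes. *Ctsb*, cathepsin B and a target of *Serpina3g*, was at 952 and 946 CPM in wild-type and 378 CPM in both TNFR2 KO libraries, and was called lower at -1.33 (SE 0.0231, edgeR adjusted p = 2.99e-13). *Ctsb* was 1.23 and 1.24 times *Serpina3g* in CPM in wild-type and 1.82 and 1.80 times in TNFR2 KO. *Ctsd*, cathepsin D, changed by 0.15 (SE 0.0203, edgeR adjusted p = 6.91e-05) and by -0.40 when scaled on NK lineage genes.

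The 3 proteases with the largest falls were those that *Serpinb1a* is known to inhibit. *Elane*, neutrophil elastase, was at 52.6 and 54.2 CPM in wild-type and 0.103 and 0.406 CPM in TNFR2 KO, and its log2-fold change was -7.77 (edgeR adjusted p = 1.32e-12). With 4 and 13 counts in TNFR2 KO, it was at -7.02 without TNFR2 KO replicate 1 and -8.96 without replicate 2. *Ctsg*, cathepsin G, fell by 6.11 (edgeR adjusted p = 3.49e-14), and *Prtn3*, proteinase 3, fell by 5.65 on the log2 scale (edgeR adjusted p = 9.70e-13). These genes are also markers of neutrophil precursors and stand in the marker list for those cells below.

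Markers of NK cells and of other blood cells were measured beside the serpins, since the libraries do not show which cells the RNA of any serpin came from. In bulk RNA, fewer cells of a type and less RNA per cell cannot be told apart. The marker lists were written by hand with earlier results of these data known. Their counts of calls stand beside 11.8% called lower and 1.56% called higher over all tested genes. All 41 NK lineage genes found in the table had counts, summing to 12386 and 12362 CPM in wild-type and 18484 and 18559 CPM in TNFR2 KO. Their median log2-fold change was 0.69, with 5 called higher and 0 lower by edgeR, and 0 either way when scaled on these genes. An adjusted p under 0.05 with a higher value in TNFR2 KO was found for 38 of the 41. Of all tested genes, 50.4% had an adjusted p under 0.05 in either direction. *Serpinb6b*, at 0.71, lay close to that median, and *Serpinb9* and *Serpinb6a*, at 0.43 and 0.34, lay below it and turned negative when scaled on these genes.

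Of 28 tested macrophage or monocyte genes, 24 were called lower and 0 higher, with a median of -2.90, and their sum was 4292 and 4247 CPM in wild-type and 2145 and 2128 CPM in TNFR2 KO. *Lyz2*, lysozyme, was at 771 and 778 CPM in wild-type and 114 and 110 CPM in TNFR2 KO. *Ccr2*, which stands in this list, went the other way, at 404 and 384 CPM in wild-type and 687 and 670 CPM in TNFR2 KO. *Clec4f*, the marker of Kupffer cells, had 0 counts in all 4 libraries. All 19 tested neutrophil or granulocyte precursor genes were called lower, with a median of -2.29, and their sum was 1141 and 1155 CPM in wild-type and 125 and 121 CPM in TNFR2 KO.

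Mast cell or basophil genes stood lowest. Of 13 tested, 11 were called lower and 1, *Cma1*, higher, with a median of -4.58, and their sum was 1288 and 1285 CPM in wild-type and 104.7 and 105.0 CPM in TNFR2 KO. *Prss34*, a basophil protease, was at 589 and 591 CPM in wild-type and 8.66 and 7.55 CPM in TNFR2 KO, and *Tpsab1* had 0 counts in both TNFR2 KO libraries. Of 13 dendritic cell or class II genes, 7 were called lower and 1, *Itgax*, higher at 1.11 (0.57 and no longer called when scaled on NK lineage genes), and of 14 erythroid or megakaryocyte genes 11 were called lower and 0 higher. Their sums were 2262 and 2292 against 1091 and 1117 CPM, and 331 and 322 against 70.8 and 75.1 CPM. Of 12 T cell genes and 3 tested B cell genes, 0 were called by edgeR, with 8 and 2 at an unadjusted p under 0.05. When scaled on NK lineage genes, 2 T cell genes (*Cd4* and *Cd8a*) and 1 B cell gene (*Cd79b*) were called lower. *Serpinb1a*, *Serpinb2*, *Serpina3f* and *Serpina3g* stood lower together with the markers of these myeloid, mast cell and erythroid lists, and the part of other cell types in their values was not tested.

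**Figure D5:**
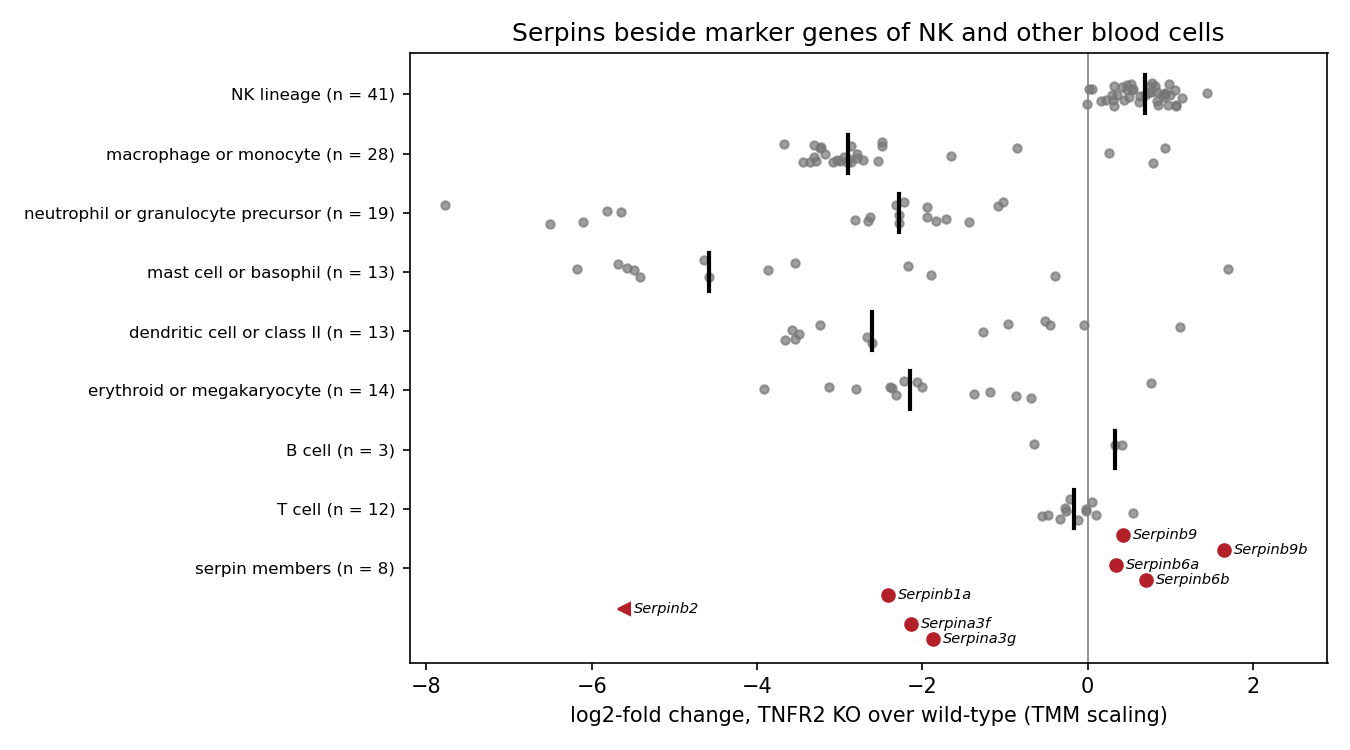
Log2-fold change, TNFR2 KO over wild-type with TMM scaling, of each tested gene in 8 marker lists (grey points, with a bar at the list's median) and of the 8 serpins (red, with a triangle for the upper limit of *Serpinb2*). NK lineage genes centre on 0.69 and the macrophage, neutrophil and mast cell lists on -2.90, -2.29 and -4.58. *Serpinb9* and *Serpinb6a* stand right of 0 here and left of it when scaled on NK lineage genes.

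For each serpin with counts in every library, the 2 genes with the nearest pattern over the 4 libraries were found among tested genes averaging 10 CPM or more, by the root mean square difference of centred log2 CPM. The 4 points share libraries and depth, so likeness is a description. *Serpinb6b* was nearest to *Eomes*, a transcription factor of NK cells (difference 0.0111), and *Osbpl3* (0.0120), which changed by 0.69 each. *Serpinb9b* was nearest to *Klra5*, a Ly49 receptor gene (0.0327, changed by 1.64), and *Cma1*, mast cell chymase (0.0414, changed by 1.69). *Serpina3g* was nearest to *Tgtp1* (0.00735, changed by -1.87) and *Gbp2* (0.0108, changed by -1.88), both interferon-induced GTPases.

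*Serpinb1a* was nearest to *Chil3* (0.0581, changed by -2.33) and *Cd5l* (0.0644, changed by -2.49), which stand in the neutrophil and macrophage marker lists. No neighbour is given for *Serpinb2*, since with 0 counts in TNFR2 KO the size of its change on this scale is set by the prior count. *Serpina3f* was nearest to *Acsl1* (0.0501, changed by -2.08) and *Hbb-bt*, a haemoglobin gene (0.0626, changed by -2.07). *Serpinb9* was nearest to *Arl5a* (0.00797) and *Sike1* (0.00872), both at 0.43, and *Serpinb6a* to *Luzp1* (0.0104, 0.33) and *H2-Ke6* (0.0119, 0.36), and these 4 genes changed sign with their serpins when scaled on NK lineage genes. How crowded a pattern is differed widely. Of 8756 genes compared, 1800 lay within 0.1 of *Serpinb6a* and 1132 within 0.1 of *Serpinb9*, while 31 lay that near to *Serpina3g*, 18 to *Serpinb1a*, 12 to *Serpina3f* and 11 to *Serpinb9b*.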

How the data were processed

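RNA from Ly49H+ NK cells was sequenced in 2 libraries per genotype. The libraries were poly-A selected, stranded and paired-end. Per the labels and the study's methods, the authors trimmed the reads with Trimmomatic, assigned them to mm10 transcripts with kallisto 0.46.1 and summed them per gene with Tximport. The authors deposited the resulting estimated counts per gene symbol, not scaled between libraries. No source used here names the transcript annotation. Estimated counts let reads of near-identical genes be split between paralogs.

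Counts were rounded to whole numbers. An unnamed row, 0.0559 to 0.0728% of the counts, was left out. Genes passing filterByExpr, 13822 in all, were scaled with TMM and entered the quasi-likelihood test of edgeR 4.0.16 (R 4.3.3). Genotype was the single term, and p-values were Benjamini-Hochberg adjusted over the 13822 tested genes. The prior count for log2 CPM was 2. The mean chi-square between duplicates was 3.36 per gene for wild-type and 3.58 for TNFR2 KO, so the duplicates differed beyond counting noise. The labels name the pooled spleens behind each replicate number but not whether donors differed between pools, so p-values measure the spread between these pools, which may be partly technical. Same-numbered libraries came from the same pool, so numbers pair them. The correlation of their deviations from the genotype means was 0.0243 over genes. Steps were tested on simulated data.

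The members, gene lists and tests were chosen with earlier results of these data known. Named were the 8 members, *Tnfrsf1b*, *Ptprc*, other serpins that were called or were the 3 most abundant, the 5 most abundant proteases and up to 3 called with the largest change in each direction, the up to 3 most abundant markers per list, and the 2 genes of nearest pattern per member (none for *Serpinb2*). The result of 1 called serpin is not reported here. *Clec4f*, *Tpsab1*, *Cd8a* and *Nqo2* were named after their values were seen. Positions and coding sequences came from GENCODE M21 on GRCm38 and upstream windows from RefSeq (GRCm38.p6). Coding sequences were aligned with Biopython 1.88. The alternatives were DESeq2 (1.42.0), other scalings and count filters, a replicate block and leaving out each library.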

Additional observations from a re-analysis of the deposited data

How the results depend on the processing

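Signs of the 8 serpins held under every alternative that tested them (*Serpinb2* is under the 10 CPM filter), except scaling on the summed NK lineage genes, where the log2-fold change was -0.12 for *Serpinb9* and -0.20 for *Serpinb6a*. Other named genes that changed sign under that scaling were *Ptprc* at -0.050, *Serpini1* at -0.19, *Ctsd* at -0.40, *Il2rb* at -0.11, *Ighm* at -0.22, *Blk* at -0.12, *Cd3g* at -0.45, *Arl5a* at -0.11, *Sike1* at -0.11, *Luzp1* at -0.22 and *H2-Ke6* at -0.19. The scaling's own construction, which sets the summed counts of the NK lineage genes without *Prf1* level, moves every gene's value down. Single NK lineage genes were not level under it, and the median log2-fold change of their list was 0.14. This scaling called 2639 genes lower and 58 higher, against 1627 and 215 with TMM. Other serpins were then called lower in 8 cases and higher in 0, and proteases higher in 0, where edgeR found 10 other serpins and 18 proteases at an unadjusted p under 0.05 with TMM.

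With DESeq2 0 other serpins were called higher, against 1 with edgeR. With genes of a mean of at least 10 CPM, 480 genes were called of 8765 tested, 424 lower and 56 higher, and 0 other serpins (0 lower, 0 higher), since fewer genes were tested. With each library left out, 0 to 1 other serpins were called higher, and genes called in all ran from 1650 to 1867. *Trbc2* ran from -0.060 to 0.029, with the value above 0 found without TNFR2 KO replicate 1. The paired fit with the replicate block called 1830 genes and changed no other call, nor a count by over 1.5 times, though *Serpini1* then passed the adjusted p alone. *Serpinb2*, at 0 counts in TNFR2 KO, is limited by depth.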
